A study of Homo sapiens with 12 samples.

Results

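The 4 HOX gene clusters were examined in HepG2, an established human line that the labels give as hepatocellular carcinoma, through 158 of the 273822 regions called for 3 histone modifications. A region was taken where it overlapped a fixed window of the human genome, build GRCh37 (hg19). The windows were HOXA on chromosome 7 from 27120000 to 27260000 (140 kb), HOXB on chromosome 17 from 46600000 to 46820000 (220 kb), HOXC on chromosome 12 from 54320000 to 54460000 (140 kb) and HOXD on chromosome 2 from 176940000 to 177060000 (120 kb). HOXA held 61 of the 158 regions, HOXB 25, HOXC 40 and HOXD 32. By mark they were 17 H3K27ac regions, 112 H3K4me1 regions and 29 H3K4me3 regions. The rule uses positions alone.

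The study profiled untreated HepG2 cells by ChIP-seq, which sequences the DNA that an antibody to a modified histone pulls down. The 12 libraries formed 4 groups of 3 replicates: H3K27ac, H3K4me1, H3K4me3, and a control whose titles say input and whose antibody label is an anti-mouse immunoglobulin G. Each mark was analysed as 1 list in which the authors pooled the replicates, going by the list's name, so there was no spread between cultures and no difference was tested. The cells are a single cancer line, and whether they carry the marks of liver cells at liver genes was not analysed here.

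HOX genes encode homeodomain transcription factors that set position along the body axis of the embryo. Each cluster keeps its genes in order of paralogue number, with low numbers (anterior genes) at one end and high numbers (posterior genes) at the other, and in embryos the genes are switched on in that order. After development a cell keeps a cluster partly or wholly silent through Polycomb proteins, which place H3K27me3, or active through Trithorax proteins such as KMT2A (MLL), which place H3K4me3. H3K4me3 is found mainly at promoters, H3K27ac at active promoters and enhancers, and H3K4me1 at enhancers and on the sides of promoters. H3K27me3 was not among the marks profiled, so silencing by Polycomb was not measured.

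Gene order was taken from RefSeq, which listed all 38 cluster members considered here. From low to high coordinate it ran from HOXA2 to HOXA13, from HOXB1 to HOXB13 and from HOXD13 to HOXD1. In HOXC it ran from HOXC13 down to HOXC8, and then came the records of HOXC4, HOXC5 and HOXC6. Genes were sorted by the lower end of their record, and HOXC4 and HOXC5 had the same RefSeq promoter. The order among HOXC4, HOXC5 and HOXC6 therefore reflects where their records begin, and does not show a break in the falling paralogue numbers. That table is of build GRCh38, so regions could be placed toward one end of a cluster but not assigned to single genes, exons or introns.

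RefSeq promoter sequences (GRCh38.p14, 300 bases around each start) matched 20 of the 38 members: 9 of 10 in HOXA, 1 of 10 in HOXB, 2 of 9 in HOXC and 8 of 9 in HOXD. They are shown for genes toward both ends of HOXA and HOXD, where acetylation lay toward 1 end, and for HOXB1 from the cluster with fewest marks. Each is written 5′ to 3′ with CpG dinucleotides in capitals, since H3K4me3 is commonly found over CpG-rich promoters. On GRCh38.p14 they lie at chr7:27130708-27131007 (HOXA4, minus strand), chr7:27200042-27200341 (HOXA13, minus), chr17:48530962-48531261 (HOXB1, minus), chr2:176092471-176092770 (HOXD13, plus) and chr2:176188418-176188717 (HOXD1, plus). These positions cannot be set against those of the regions, which are on GRCh37.
HOXA4: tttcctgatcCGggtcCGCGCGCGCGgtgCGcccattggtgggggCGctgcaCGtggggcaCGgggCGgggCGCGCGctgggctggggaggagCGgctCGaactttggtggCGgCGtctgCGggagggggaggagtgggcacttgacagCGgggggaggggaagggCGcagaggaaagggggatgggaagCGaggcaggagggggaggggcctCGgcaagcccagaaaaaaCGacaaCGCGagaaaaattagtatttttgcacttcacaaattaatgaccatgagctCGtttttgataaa
HOXA13: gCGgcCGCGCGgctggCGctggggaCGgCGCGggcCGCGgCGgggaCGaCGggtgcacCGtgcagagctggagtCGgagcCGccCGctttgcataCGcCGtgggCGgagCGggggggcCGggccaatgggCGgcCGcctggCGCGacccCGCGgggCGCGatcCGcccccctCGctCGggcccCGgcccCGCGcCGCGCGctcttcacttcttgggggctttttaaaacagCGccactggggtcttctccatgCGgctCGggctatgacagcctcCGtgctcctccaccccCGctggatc
HOXB1: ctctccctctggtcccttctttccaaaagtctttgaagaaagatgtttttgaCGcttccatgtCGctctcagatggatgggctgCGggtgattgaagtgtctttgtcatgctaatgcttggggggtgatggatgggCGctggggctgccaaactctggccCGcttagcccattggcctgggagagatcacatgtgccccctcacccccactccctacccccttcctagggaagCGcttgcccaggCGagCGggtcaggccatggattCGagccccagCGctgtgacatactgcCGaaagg
HOXD13: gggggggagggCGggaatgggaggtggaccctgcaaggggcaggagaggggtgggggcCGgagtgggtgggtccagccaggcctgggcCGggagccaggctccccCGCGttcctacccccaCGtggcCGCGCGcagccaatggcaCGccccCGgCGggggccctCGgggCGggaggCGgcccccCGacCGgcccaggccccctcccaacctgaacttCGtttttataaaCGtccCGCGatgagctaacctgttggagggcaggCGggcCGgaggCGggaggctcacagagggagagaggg
HOXD1: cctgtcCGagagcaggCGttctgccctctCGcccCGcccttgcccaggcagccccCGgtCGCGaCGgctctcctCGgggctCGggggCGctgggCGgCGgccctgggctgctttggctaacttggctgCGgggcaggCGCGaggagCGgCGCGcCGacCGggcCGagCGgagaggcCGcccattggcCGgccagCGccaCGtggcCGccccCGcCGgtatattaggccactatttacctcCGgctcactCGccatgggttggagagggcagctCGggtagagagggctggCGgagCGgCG

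HOXA13, the most posterior HOXA gene, had 44 CpG dinucleotides in its 300 bases, a number reached by 4.20% of all promoters in the table. HOXD1, at the anterior end of its cluster, had 36 (reached by 12.7%), HOXA4 27 (28.2%) and HOXD13 24 (33.9%). HOXB1, the most anterior HOXB gene, had 11 (54.6%). The median over the 26 distinct promoters of members was 22.5, with a range from 0 to 44, against a median of 14 over all 34796 distinct promoters. HOXA (median 21.5 over 16 promoters, several of them alternative starts of HOXA3) and HOXD (24.5 over 8) were close to each other. The sequence TGATNNAT, a form of the site bound jointly by PBX and HOX proteins, was searched on both strands. It occurred in 3 of the 26 (HOXA2, HOXB1 and HOXD11), and in 7.42% of all promoters.

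HOX clusters also carry microRNA genes, and those of the miR-196 family lie in HOXA, HOXB and HOXC. Mature sequences from RefSeq are given with the seed, bases 2 to 8, in capitals.
hsa-miR-196a-5p (MIR196A1): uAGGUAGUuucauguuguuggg
hsa-miR-196a-5p (MIR196A2): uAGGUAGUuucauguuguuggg
hsa-miR-196b-5p (MIR196B): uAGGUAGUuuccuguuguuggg
The copies in HOXB and HOXC were identical, and the HOXA copy differed from them at 1 base outside the seed (A12C, counted from the 5′ end of the mature miRNA). The windows that hold these near-identical copies differed widely in marks.

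**Figure D1:**
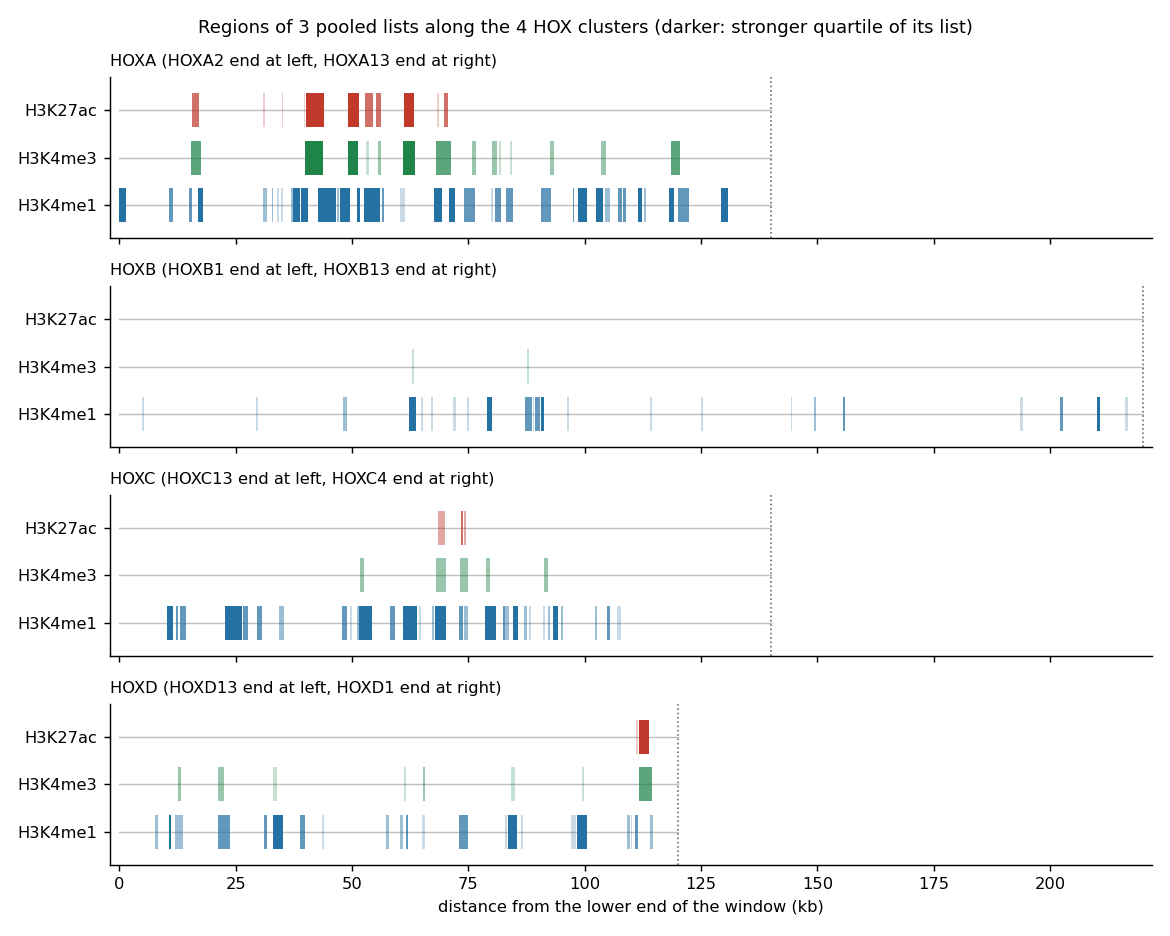
Regions of the pooled H3K27ac, H3K4me3 and H3K4me1 lists along each cluster window, in kb from its lower end. Each bar is 1 region at its true width, darker shades mark stronger quartiles of the same list, and the dotted line ends the window. H3K27ac lay in the lower and middle part of HOXA, in 2 short places of HOXC and at the HOXD1 end of HOXD, and was missing from HOXB.

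HOXA was the most marked cluster for each of the 3 modifications. H3K4me1 covered 32.4% of its bases, H3K4me3 15.5% and H3K27ac 10.9%, against 6.47%, 1.49% and 3.04% of chromosomes 1 to 22 and X. In HOXC the shares were 23.5%, 4.66% and 1.67%, and in HOXD 18.7%, 6.30% and 2.22%. HOXB had 6.46% H3K4me1, 0.444% H3K4me3 and no H3K27ac. By covered bases HOXC and HOXD were above the genome in both H3K4 methylations and below it in acetylation. By number of regions HOXC was above it in H3K27ac too, with 2.86 per 100 kb against 2.19, and its regions had a median width of 444.5 bp against 723 bp in the whole list. HOXD was below by number as well, with 1.67 per 100 kb.

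The chromosomes themselves differ in how densely they are marked. On chromosome 17 as a whole, H3K4me1 covered 15.0% of bases, H3K4me3 3.40% and H3K27ac 6.93%, and the HOXB window was below its chromosome for each mark. HOXB held 23 H3K4me1 regions, or 10.5 per 100 kb, which was more than the 6.01 per 100 kb of the genome but less than the 11.7 of chromosome 17. They were narrow, with a median width of 474 bp, against 1126.5 bp in HOXA, 928 bp in HOXC and 706.5 bp in HOXD. For the other clusters the share of H3K4me1 on their own chromosome was 5.96% (chromosome 7), 6.75% (chromosome 12) and 6.46% (chromosome 2).

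Flanks of equal length set the clusters against their neighbourhood. Beside HOXA, H3K4me1 covered 3.25% below and 4.69% above, and H3K27ac covered 0% on both sides. Beside HOXD it was 3.45% and 2.11% for H3K4me1, and 1.82% and 1.22% for H3K27ac. HOXC lay in a more marked stretch, with 12.8% and 15.4% H3K4me1, and with more H3K27ac below it (5.43%) than inside it. HOXB had 1.05% H3K4me1 below it, whereas the 220 kb above it carried 24.4% H3K4me1, 6.47% H3K4me3 and 13.9% H3K27ac.

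**Figure D2:**
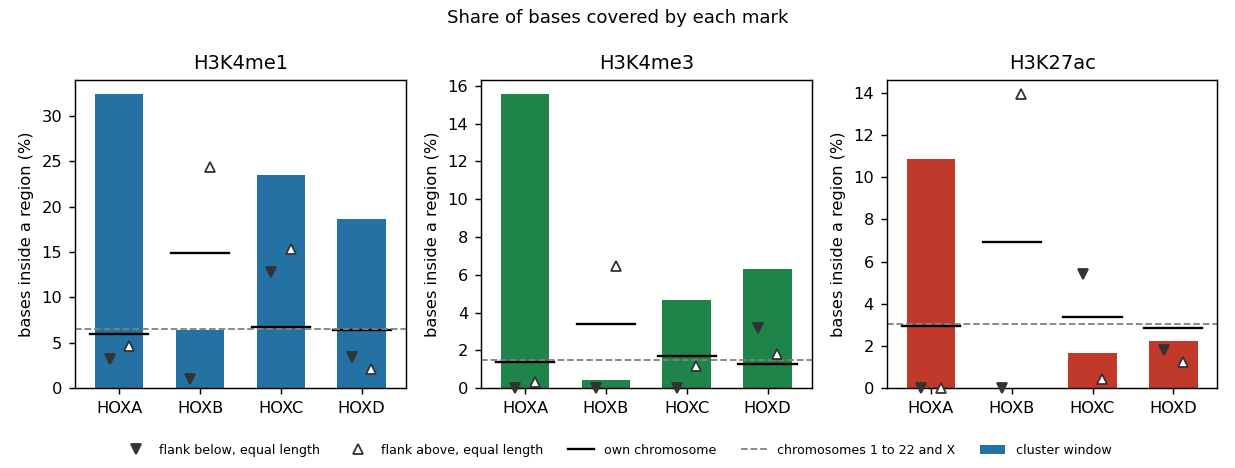
Bars give the percent of bases of each HOX window inside a region of H3K4me1, H3K4me3 or H3K27ac. Triangles give flanks of the same length, black lines the chromosome that holds the cluster, and the dashed line chromosomes 1 to 22 and X. HOXA stands above its flanks and chromosome for all 3 marks, and HOXB below its chromosome for all 3.

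Along HOXA the marks fell into an acetylated stretch and an unacetylated one. All 11 H3K27ac regions lay between 27135671 and 27190652, a stretch of 55.0 kb in which H3K27ac covered 27.7% of bases, H3K4me3 26.1% and H3K4me1 37.9%. Above it, toward HOXA13, a stretch of 69.3 kb had no H3K27ac region, yet H3K4me1 still covered 31.3% and H3K4me3 10.2%. The lack of H3K27ac there follows from cutting the stretch at the last H3K27ac region. H3K4me1 had no part in that cut, and its share was 37.9% in the acetylated stretch and 31.3% above it. No region of any list lay between 27138045 and 27150906, the longest unmarked stretch of the window (12862 bp).

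In windows of 20 kb from the lower end, H3K27ac covered 7.68%, 4.33%, 46.1%, 17.9%, 0%, 0% and 0% of HOXA. The third window, from 40 to 60 kb, was also the peak of H3K4me1 (59.9%) and of H3K4me3 (36.4%). Genome-wide, 3.63% of 20 kb windows were covered to at least 25% by H3K27ac, 8.93% by H3K4me1 and 0.841% by H3K4me3. HOXA had 1 of 7 windows at that level for H3K27ac, 4 of 7 for H3K4me1 and 2 of 7 for H3K4me3. HOXB had 0 of 11 for each mark, with 11 of 11 free of H3K27ac, against 79.5% of windows genome-wide, and 9 of 11 free of H3K4me3, near the 86.4% genome-wide.

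The strongest HOXA acetylation lay at 27160124-27163973 (3850 bp). Its signal value, the authors' own measure of a region's strength from the peak caller, was 39.5, rank 1949 of the 66513 regions on chromosomes 1 to 22 and X. The next was 27169058-27171595 with 35.6 (rank 2657), then 27181154-27183397 with 15.2 (rank 10800). The other 8 HOXA regions had values from 1.59 to 7.84, and 4 of the 11 were under 2. By signal value the 11 regions fell 3 in the strongest quartile of the list, 4 in the second and 4 in the weakest.

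The 3 strongest HOXA H3K4me3 regions lay over the same places. They were 27169068-27171397 with a signal value of 52.2 (rank 3090 of 24446), 27181051-27183505 with 43.3 (rank 5689) and 27159843-27163746 with 42.9 (rank 5823), the last also the widest at 3904 bp. H3K27ac covered 100%, 91.4% and 96.3% of their bases. Another, 27135342-27137469, stood apart at the lower end with 37.1, and 72.1% of it was acetylated. At 27187986-27191218 H3K4me3 reached 25.7 over 3233 bp, but H3K27ac covered 41.1% of it. That region straddled the upper limit of the acetylated stretch.

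Beyond that limit came 7 H3K4me3 regions, each overlapping H3K4me1 and none overlapping H3K27ac, the latter because the limit is defined by H3K27ac. Their signal values in order toward the upper end were 6.67, 9.77, 2.67, 2.06, 5.46, 7.33 and 14.2. The 7 within the acetylated stretch had a median of 37.1 (range 1.74 to 52.2), and the 7 above it a median of 6.67 (range 2.06 to 14.2). The ranges overlapped through 2 weak regions, with 1.74 and 5.39, inside the acetylated stretch. The strongest of the unacetylated ones, 27238592-27240377 with 14.2, was just within the stronger 50% of the list, at rank 11975. The next 2 were 27200104-27201184 with 9.77 and 27223515-27224655 with 7.33.

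H3K4me1 in HOXA had no such division of strength. The highest signal value was 6.66 at 27249286-27250867, beyond the last H3K4me3 region of the window, followed by 6.55 at 27172509-27176116 in the acetylated stretch and 6.23 at 27218665-27220561 outside it. Medians were 4.31 over 16 regions in the acetylated stretch and 4.18 over 17 above it. The widest, 27162744-27166539 with 3796 bp, overlapped the upper side of the strongest acetylated region.

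**Figure D3:**
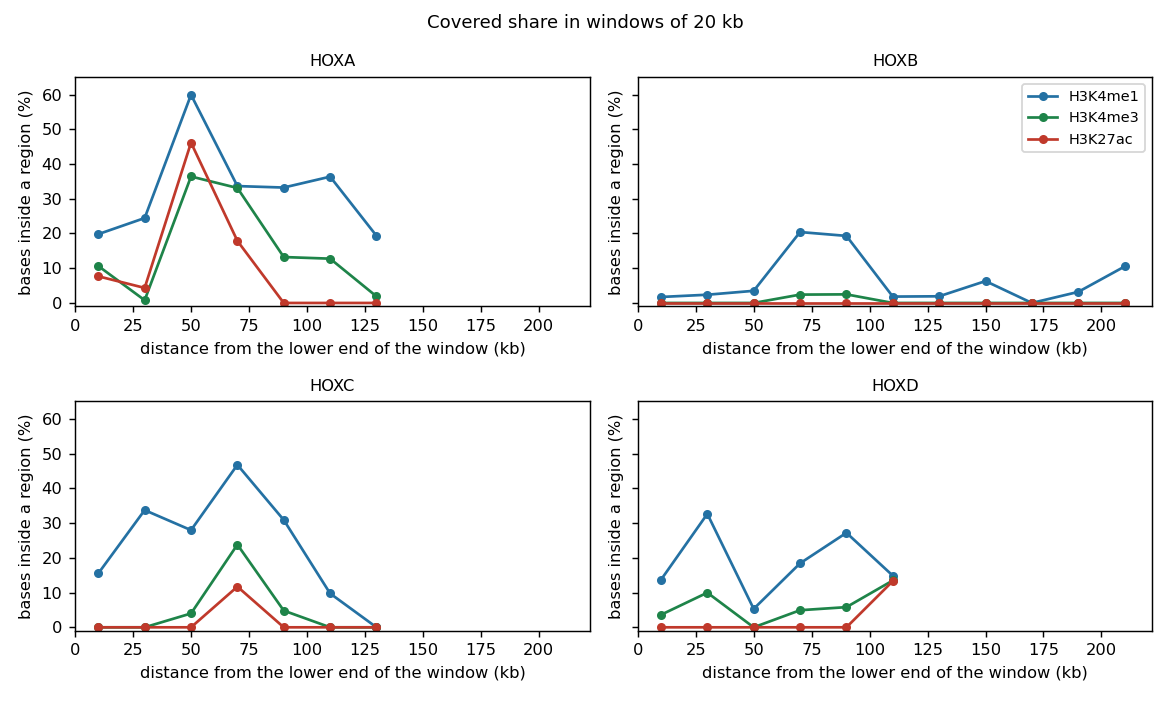
Percent of bases inside a region in consecutive windows of 20 kb, plotted at the middle of each window, for the 3 marks in each HOX cluster. In HOXA the H3K27ac line reaches 46.1% and then 0% from 80 kb on while H3K4me1 stays between 19.3% and 36.4%. In HOXB no window exceeds 20.4% for any mark.

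HOXB carried weak H3K4me3, and its H3K4me1 regions fell in all 4 quartiles of that list by signal value. The 2 H3K4me3 regions, 46687549-46688043 and 46662869-46663349, had signal values of 2.72 and 2.63 and ranked 20094 and 20382 of 24446. They were 495 and 481 bp wide, and both lay wholly inside H3K4me1 regions. The strongest H3K4me1 regions were 46810030-46810678 with 6.90, near the HOXB13 end, 46662300-46663715 with 6.24, the widest at 1416 bp, and 46678992-46680160 with 5.64. By signal value, 4 of the 23 H3K4me1 regions were in the strongest quartile of the list and 13 in the weakest. Of the 23, 21 (91.3%, 95% Wilson interval 73.2 to 97.6) overlapped neither other mark, against 61.6% of the whole list. With no H3K27ac region and 2 H3K4me3 regions in the window, few could overlap either, so this share is not a separate result. It was not matched for signal value.

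The H3K4me1 of HOXB was gathered between 60 and 100 kb from the lower end. It covered 20.4% and 19.3% of the windows from 60 to 80 kb and from 80 to 100 kb, at most 3.50% of the 3 windows below them, and at most 10.5% of those above. A stretch of 37573 bp from 46755920 to 46793492 had no region of any list. The nearest H3K27ac regions outside bounded a gap of 682278 bp, from 46186356 to 46868633, that held the whole HOXB window. Of the gaps between neighbouring H3K27ac regions genome-wide, 1.13% by number were as long. Long gaps hold more bases, so a fixed window falls in one more often than that share, which is no measure of rarity.

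HOXC held the strongest H3K4me1 regions of the 4 clusters. Its strongest region, 54342715-54346465 with a signal value of 9.29, ranked 3267 of 182592 and was also its widest, at 3751 bp, and it lay toward the HOXC13 end. Next came 54387745-54390175 with 8.68 (rank 4704) and 54380918-54383899 with 7.78 (rank 7908). The highest H3K4me1 values of the other clusters were 6.90 in HOXB, 6.66 in HOXA and 5.54 in HOXD. Of the 31 HOXC regions, 24 (77.4%, interval 60.2 to 88.6) overlapped neither other mark, against 61.6% of the whole list, which lies inside that interval. The upper 32114 bp of the window, from 54427887, had no region of any list.

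H3K27ac in HOXC amounted to 4 regions within 6.02 kb, from 54388515 to 54394533. Their signal values were 2.20, 2.59, 3.75 and 3.09 in order of position. The strongest, 54393485-54393798, was 314 bp wide and ranked 28972 of 66513, and the next were 54393964-54394533 and 54388898-54390036. All 4 lay inside 2 H3K4me3 regions, 54388130-54390208 with a signal value of 3.57 and 54393263-54395030 with 9.82. These were 2 of the 5 H3K4me3 regions of HOXC, and the others, at 54371761-54372558 (4.62), 54398743-54399656 (5.20) and 54411192-54412152 (7.37), had none. All 5 fell in the third quartile of the list by signal value.

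HOXD was acetylated at 1 end. Its H3K27ac regions were 177051613-177053847 with a signal value of 10.5 (rank 14593) and the adjoining 177050970-177051393 with 1.85, both toward HOXD1, the anterior end. Over the first lay the strongest and widest H3K4me3 region of the cluster, 177051700-177054394, with 25.01 and 2695 bp, of which H3K27ac covered 79.7%. The other 111.0 kb of the window below held 7 H3K4me3 regions without acetylation, with values of 7.41, 6.71, 3.38, 2.47, 3.63, 2.57 and 1.98 from the HOXD13 end onward. The first 3 of these were 176952574-176953293, 176961279-176962574 and 176973108-176973806. The acetylated region had over 3 times the signal of any other H3K4me3 region in HOXD.

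The unacetylated H3K4me3 of HOXD lay within H3K4me1. Of the 7 regions, 6 were wholly inside an H3K4me1 region, and the remaining one, 177001117-177001609, fell in the gap between a pair of H3K4me1 regions and overlapped no other mark. The strongest H3K4me1 regions were 177023485-177025458 with 5.54, 176972938-176975079 with 5.36 and 177038293-177040442 with 5.33, and the widest was 176961116-176963756 with 2641 bp. No region of any list lay between 176984006 and 176997268.

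Taking the clusters as a group, H3K4me3 regions mostly lacked acetylation by count. Of the 29 H3K4me3 regions, 10 overlapped H3K27ac (34.5%, interval 19.9 to 52.7), against 77.5% of the whole list. By cluster these were 7 of 14 in HOXA, 0 of 2 in HOXB, 2 of 5 in HOXC and 1 of 8 in HOXD. A further 18 overlapped H3K4me1 alone (62.1%, 44.0 to 77.3), against 18.7%. The remaining 1 overlapped neither, against 3.78%. Overlap with H3K4me1 itself, in 28 of 29 regions, was near the 92.7% of the whole list. The intervals are for counting error alone, as if regions side by side were unrelated.

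Signal strength moves with acetylation in the whole list, and the HOX regions were weak, so the counts were also taken by quartile of H3K4me3 signal value. In the strongest quartile (41.9 or more) 3 of 3 HOX regions overlapped H3K27ac, where 6111 of 6112 (100%) did so genome-wide. In the second it was 3 of 4 against 95.4%, in the third 3 of 13 against 58.8%, and in the weakest 1 of 9 against 56.0%. Over the third and weakest quartiles together, 4 of 22 HOX regions (18.2%, interval 7.31 to 38.5) overlapped H3K27ac, against 57.4% of 12223 regions. The whole-list value lay above that interval. That is not a test, since the interval takes neighbouring regions as unrelated and the quartile division was picked after the values were seen. In the same 2 quartiles 17 of 22 (77.3%, 56.6 to 89.9) overlapped H3K4me1 alone, against 35.2%. By cluster, 2 of 8 of these weaker regions overlapped H3K27ac in HOXA, 0 of 2 in HOXB, 2 of 5 in HOXC and 0 of 7 in HOXD. Genes or CpG content around the rest of the list were not matched.

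**Figure D4:**
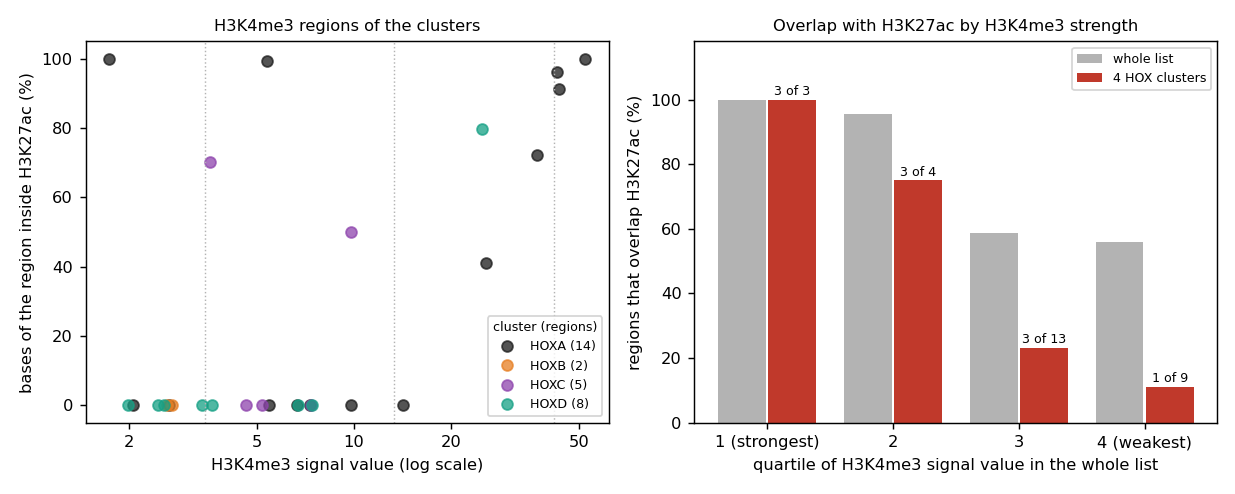
Left, each H3K4me3 region of the HOX clusters by signal value (log axis) and by the percent of its bases inside H3K27ac, with dotted lines at the quartile limits of the whole list. Right, the percent of H3K4me3 regions that overlap H3K27ac in each quartile, for the whole list (grey) and the 29 HOX regions (red, with counts). In the third and weakest quartiles 3 of 13 and 1 of 9 HOX regions overlapped H3K27ac.

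Seen from the other marks, acetylation in the clusters was mostly at H3K4me3. Of the 17 H3K27ac regions, 14 overlapped H3K4me3 (82.4%, interval 59.0 to 93.8), against 31.7% of the whole list. HOXA held 11 of the 17 and 9 of the 14. The 3 that did not overlap H3K4me3 were short regions with signal values of 1.64, 1.72 and 1.85, each with a deposited −log10 q-value under 5. Acetylated H3K4me1 away from H3K4me3, the combination common at enhancers, was seen in 3 of 112 H3K4me1 regions (2.68%, 0.915 to 7.58), against 19.5%. By cluster these were 2 of 36 in HOXA, 0 of 31 in HOXC and 1 of 22 in HOXD. The other 23 were in HOXB, where no H3K27ac region was called, so they could not qualify. By bases HOXA was not short of the combination, with 1.91% against 1.63% of chromosomes 1 to 22 and X. Of the same 112, 14 overlapped H3K27ac at all (12.5%, 7.59 to 19.9), against 33.4%, and 35 overlapped H3K4me3 (31.3%, 23.4 to 40.3), against 18.9%. Overlap with H3K4me3 but not H3K27ac was seen in 24 (21.4%, 14.8 to 29.9), against 4.96%. H3K4me3 covered 15.5% of HOXA, 4.66% of HOXC and 6.30% of HOXD, against 1.49% of chromosomes 1 to 22 and X. Overlap with it is therefore likelier in these windows, and the shares of H3K27ac and H3K4me1 regions were not matched for this. H3K4me1 alone made up 74 of 112 (66.1%, 56.9 to 74.2), near the 61.6% of the list.

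The place of H3K4me1 relative to H3K4me3 followed strength within the clusters, as it did in the whole list. The 7 H3K4me3 regions of the 2 stronger quartiles, 6 in HOXA and 1 in HOXD, had 0 summits inside an H3K4me1 region, where 2.60% and 17.0% of such summits were inside genome-wide. Over all 29, 18 summits lay inside H3K4me1, against 40.6% of the whole list, a share not matched for strength. These 18 were all among the weaker regions, 10 of 13 in the third quartile against 61.5% and 8 of 9 in the weakest against 81.3%. Within quartiles the clusters were thus not far from the list. Within 1000 bp outside both edges H3K4me1 was present for 23 of 29 regions, near the 76.5% of the list, and it was at neither edge for 0 of 29, against 5.49%.

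By bases, the combination of both H3K4 methylations without acetylation filled 4.36% of HOXA, 0.444% of HOXB, 2.51% of HOXC and 4.00% of HOXD, against 0.205% of chromosomes 1 to 22 and X. H3K4me1 with H3K27ac and no H3K4me3 filled 1.91% of HOXA, 0.353% of HOXD and none of HOXB and HOXC, against 1.63%. H3K4me3 with H3K27ac and no H3K4me1 filled 5.55% of HOXA, 1.79% of HOXD, 0.0121% of HOXC and none of HOXB, against 0.671%. All 3 marks together filled 3.31% of HOXA and H3K4me3 alone 2.33%. By bases, H3K4me3 was thus more often acetylated than not in HOXA, and less often in HOXB, HOXC and HOXD. Bases under no mark made up 59.6% of HOXA, 93.5% of HOXB, 76.0% of HOXC and 78.9% of HOXD, against 92.5%. The bare share of HOXB was thus close to that of the genome, and those of HOXA, HOXC and HOXD were below it.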

How the data were processed

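The values were 3 deposited lists of regions (narrowPeak), 1 per mark, which by their names pool the 3 replicates. Per the submitters' processing notes MACS2 and build hg19 were used, with no version given, and the threshold and the use of the control are not given in the sources used here. No region ended past the end of its hg19 chromosome (lengths from GenomeInfoDb 1.38.1). The deposited signal value of a region is the authors' own, relative to what is not stated, and was used only to describe and rank regions within a list. The deposited −log10 q-value served as a threshold in an alternative, and the authors' score and p-value were not used. Values by library were not analysed here, and depth is unknown.

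Regions belonged to a cluster with at least 1 bp inside its window, and regions of 2 lists were shared with at least 1 bp in common. Covered bases were clipped to the window. Whole-list values are for chromosomes 1 to 22 and X. Shares of regions have 95% Wilson intervals. Regions named are the 3 with the highest signal value and the widest in each list and cluster, up to 3 unacetylated H3K4me3 regions per cluster and the longest bare stretch. Others, with the HOXA region at the upper limit of acetylation, the lowest HOXA H3K4me3 region, the 2 H3K4me3 regions of HOXC with acetylation and the HOXD region without H3K4me1, were picked after their values were seen, as was the division by quartile. The clusters, lists and tests were chosen with earlier results of these data known. The planned description by gene and the check of liver genes were not run, for want of an annotation of this build. Interval functions were tested on simulated data. Python 3.11.15, numpy 2.4.6, pandas 2.3.3, scipy 1.17.1 and matplotlib 3.10.9 were used.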

Additional observations from a re-analysis of the deposited data

How the results depend on the processing

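Over 40 results, 138 alternative values were computed, all planned. Of these, 115 stayed within 1.5 times a count or within the interval of a share, and 23 moved further. Membership by summit, 50% coverage and windows widened by 20 kb gave none of the 23. Each member region had its summit inside its window, so the 28 values by summit equalled the main values. They are among the 115 and show no stability. For covered shares the interval treats each kb of the window as a separate trial, so its width is a convention. Under it a fall in HOXB H3K4me1 from 6.46% to 4.06% does not count as a move. For shares of windows the interval rests on 6 to 11 windows and is too wide to show a move. With windows of 10 kb in place of 20 kb, the share covered to at least 25% by H3K27ac was 21.4% in HOXA (14.3% before) and 8.33% in HOXD (0%), and by H3K4me3 it was 7.14% in HOXC (0%), 8.33% in HOXD (0%) and 21.4% in HOXA (28.6%). By H3K4me1 it was 71.4% in HOXA and 42.9% in HOXC, both 57.1% before. Keeping regions at or above 5 in −log10 q, H3K27ac regions numbered 7 in HOXA and 1 in HOXD, and H3K4me1 regions 11 in HOXB, covering 4.06% of it in place of 6.46%. Joining regions within 1000 bp gave 22 H3K4me1 regions in HOXA and 17 in HOXC, and 2 H3K27ac regions in HOXC and 1 in HOXD. The stronger 50% of each list gave 7 H3K27ac and 6 H3K4me3 regions in HOXA. In HOXB it gave 8 H3K4me1 regions covering 3.34% and 0 H3K4me3 regions covering 0%. In HOXC it gave 1 H3K27ac region covering 0.224%, 17 H3K4me1 regions and 0 H3K4me3 regions covering 0%. In HOXD it gave 1 H3K27ac region, 10 H3K4me1 regions covering 11.9% and 1 H3K4me3 region covering 2.25%. HOXB and HOXC then had no H3K4me3 region whose overlap with H3K27ac could be counted. Fewer regions follow from how filtering and joining are built. HOXA had the highest covered share for each mark under each alternative run, and HOXB the lowest, apart from a tie with HOXC at 0% H3K4me3 in the stronger 50%. No paired analysis was possible because the lists pool the replicates and carry no values by replicate number. Depth is unknown, so an absent region is one not called in these lists, and copy number of the chromosomes was not tested.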

Other observations

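Acetylation around the clusters ended in long gaps. Above the last H3K27ac region of HOXA a gap of 426901 bp ran to 27617553, a length reached by 1.89% of the gaps between neighbouring H3K27ac regions. Such shares count gaps by number, and each gap was taken as the longest that reached into its window. A fixed window falls in a long gap more often than they state, so they do not measure rarity. Above that of HOXC the gap was 187701 bp (4.02% of gaps as long), and below the acetylated end of HOXD the gap was 183410 bp (4.10%), from 176867560 to 177050969. In each case the side of the cluster that faced the gap still carried H3K4me1, over 31.3% of the bases above the acetylated stretch in HOXA, 15.2% above that in HOXC and 19.1% below that in HOXD.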
